A study of Mus musculus with 6 samples.

Results

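Ribosomal protein genes of the cytosolic ribosome were followed in mouse alveolar macrophages, the phagocytes that live in the air spaces of the lung. The set holds every gene of the expression table whose symbol begins with Rpl or Rps and goes on with a digit, or with an a or a p and a digit (as in Rplp0 and Rpsa). The kinases named Rps6k were left out, since they phosphorylate a ribosomal protein and are not part of the particle. This rule found 91 of the 11789 genes of the table, on 20 chromosomes. It took in 31 proteins of the small subunit and 46 of the large subunit, together called the core, 7 divergent copies of core genes, 6 genes whose symbols end in a pseudogene suffix (-ps), and Rps19bp1, which encodes a protein that binds Rps19 and is not itself a ribosomal protein.

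The RNA came from alveolar macrophages of the lungs of C57BL/6 mice. Both groups received the same exposure, written BLM in the labels. There were 3 libraries from wild-type mice and 3 from mice with a conditional knockout of A20. A20 is the ubiquitin-editing enzyme encoded by Tnfaip3, which restrains NF-kB signalling. Neither the dose and time of the exposure nor the Cre line, the exons removed, a sort of the cells or any pooling of animals is stated, so p-values measure only the spread between these samples, which may be technical.

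The ribosome has a small subunit, which reads the messenger RNA, and a large subunit, which joins amino acids. Each subunit is built from ribosomal RNA and one copy of most of its proteins, while the flexible stalk of the large subunit, made of Rplp0, Rplp1 and Rplp2 on a base that includes Rpl12, carries several copies of the acidic proteins and recruits the elongation factors. Messenger RNAs for these proteins begin with a run of pyrimidines (C or T) called the 5′ terminal oligopyrimidine or TOP tract, through which the kinase complex mTORC1 controls how strongly they are translated. In macrophages, as in other cells, they are among the most abundant messenger RNAs, and some of the proteins, among them Rpl5 and Rpl11, also bind the p53 regulator Mdm2.

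The start sites are shown first, since the TOP tract is a sequence feature known for these genes. Divergent copies are compared with their core genes by the letters at an annotated start. Each line gives 15 bases before and 15 bases from a start site annotated in RefSeq (GRCm38.p6), written 5′ to 3′ on the strand of the gene. Capitals mark an unbroken run of at least 7 pyrimidines that reaches within 5 bases of the start, and a line with no capitals holds no such run. The first 3 genes are typical carriers of the tract: Rps6, the protein phosphorylated by the S6 kinases (chr4:86857353-86857382, minus strand), Rpl38 (chr11:114668565-114668594, plus strand) and the stalk protein Rplp2 (chr7:141447636-141447665, plus strand).
Rps6: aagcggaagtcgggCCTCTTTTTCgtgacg
Rpl38: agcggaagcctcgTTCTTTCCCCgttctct
Rplp2: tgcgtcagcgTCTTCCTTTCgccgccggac

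The next lines set divergent copies beside their core genes: Rps27 (chr3:90213634-90213663, minus strand) with its copies Rps27rt (chr9:114982725-114982754, minus strand) and Rps27l (chr9:66946071-66946100, plus strand), and Rpl22 (chr4:152325711-152325740, plus strand) with Rpl22l1 (chr3:28805493-28805522, plus strand). Rpl10 (chrX:74270801-74270830, plus strand) is shown because it had the highest positive difference between the groups.
Rps27: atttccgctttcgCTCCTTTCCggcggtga
Rps27rt: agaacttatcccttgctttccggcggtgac
Rps27l: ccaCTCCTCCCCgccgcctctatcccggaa
Rpl22: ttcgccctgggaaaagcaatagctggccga
Rpl22l1: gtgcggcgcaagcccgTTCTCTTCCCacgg
Rpl10: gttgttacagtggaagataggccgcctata

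Of the 91 genes, 65 had a promoter entry, with 77 annotated starts between them. A run of at least 7 pyrimidines reached within 5 bases of 29 of these starts (37.7%), against 14.1% of the 32851 starts of all mouse promoters in the same table. A start that was itself a C followed by 4 more pyrimidines was found in 18.2% of the starts of ribosomal protein genes and in 2.51% of all starts. Genes for translation elongation and other known TOP messages had the run at 38.5% of their starts, initiation factors at 10.7% and ribosome assembly factors at 11.1%. Only the strand of the gene was searched. A match describes these letters only, and annotated starts can lie a few bases from the ones a cell uses.

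Levels are given as FPKM, a fragment count divided by transcript length and by the size of the library. This puts genes of different length on one scale, but a trend over length that differed between libraries remained, as described below. The core genes were all well expressed. The core gene of lowest mean over the 6 libraries, Rps15a, stood at 48.2 ± 16.2 in wild type and 40.6 ± 5.98 in knockout (mean ± SD, n = 3 each). Rplp1, an acidic protein of the stalk, had the highest level of the set, with a mean of 1096. Rps3a1, which lies near the path of the messenger RNA through the small subunit, followed with 723, then the large-subunit proteins Rpl17 with 705 and Rpl8 with 702, and the small-subunit protein Rps15 with 667.

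The lowest 3 genes, Rpl39l, Rpl3l and Rpl7a-ps5, had means of 1.04, 1.07 and 1.69. Rpl39l and Rpl3l are the copies of Rpl39 and Rpl3 that are known from testis and from muscle. In these macrophages Rpl39l stood at 0.319 to 0.968% of Rpl39, and Rpl3l at 0.404 to 1.06% of Rpl3. The core genes held 6.54 ± 0.460% of the summed FPKM in knockout and 6.79 ± 0.990% in wild type (SD, n = 3 each), nearly all of the signal of the set.

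**Figure D1:**
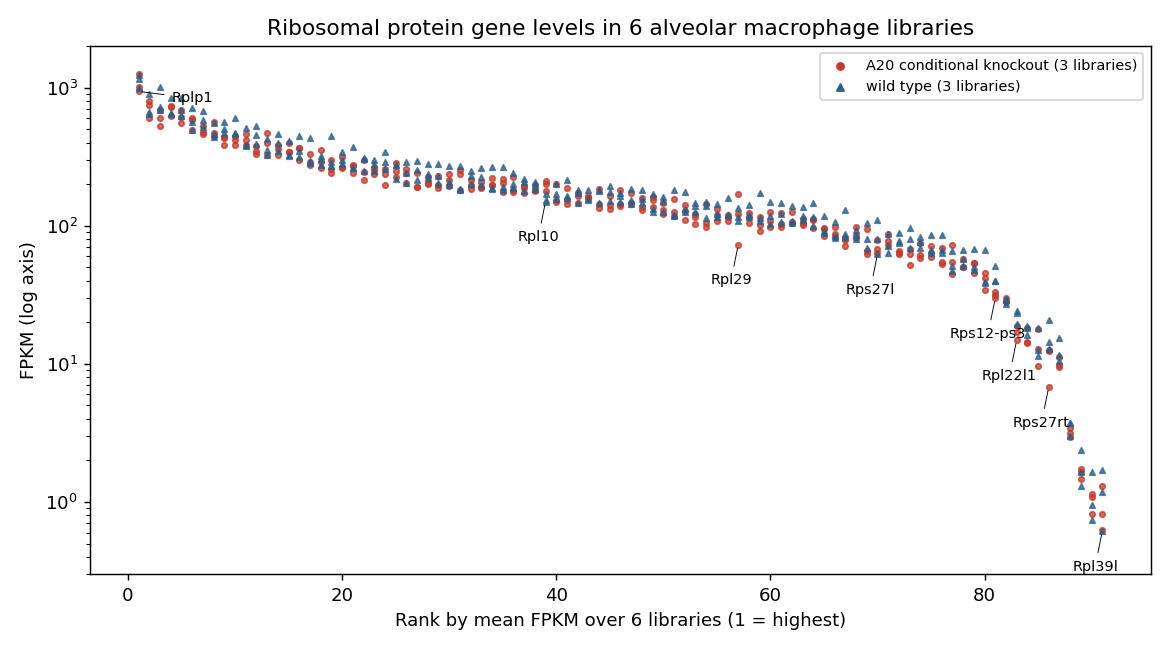
FPKM (log axis) of each of the 91 genes in the 3 knockout libraries (circles) and the 3 wild-type libraries (triangles), ordered by mean level. The levels span from a mean of 1096 for Rplp1 to 1.04 for Rpl39l, and the 2 groups lie close together along the whole order.

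The targeted gene was looked at first as a check of the labels. Tnfaip3 stood at 8.44 FPKM in knockout library A20-1, 12.9 in A20-3 and 6.80 in A20-4. In the wild-type libraries it stood at 4.47 in BLM1, 2.18 in BLM2 and 21.6 in BLM3, and later values follow this order. The groups overlapped, and 2 of the wild-type libraries lay below every knockout library (log2 difference 0.46 ± 0.69 SE, limma adjusted p = 0.734). The value sums the whole gene and the deleted exons are not stated, so it does not check the labels, and knockout and wild type name the libraries by their labels alone.

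All 12 alveolar macrophage markers, such as Siglecf, Marco and Pparg, were present in every library, summing to 5498 to 7861 FPKM in knockout and 3866 to 6835 in wild type. Markers of recruited macrophages summed to 607 to 726 in knockout and 1928 to 2347 in wild type, and epithelial markers to 301 to 393 and 73.9 to 213. Markers of T and natural killer cells (111 to 313), B cells (10.6 to 84.8) and dendritic cells (33.7 to 83.2) were low. The sum of 7 neutrophil markers was 128 or less in 5 libraries and 2769 in BLM3, with Ly6g and Retnlg at 0 in at least 1 library. Globin and other red cell markers reached 3551 in A20-3 and 2484 in BLM3, against 188 to 968 in the other 4 libraries. In such bulk samples, fewer cells of a type and less RNA per cell cannot be told apart.

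As a block, the ribosomal protein genes took up a similar part of the library in both groups. They held 6.34, 7.19 and 6.47% of the summed FPKM in the knockout libraries, and 6.24, 6.49 and 8.07% in the wild-type libraries (in the same order). The highest share was in BLM3 and the lowest in BLM1, so the wild-type libraries spanned all of the knockout libraries. The mean was 6.67 ± 0.461% in knockout and 6.93 ± 0.993% in wild type (SD, n = 3 each), a difference of -0.265 percentage points. Without BLM3 the wild-type mean was 6.36%, and the difference was 0.304 percentage points in the other direction. The difference was smaller than the spread between wild-type libraries.

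The 2 subunits kept step. The summed FPKM of the large-subunit genes was 1.52 to 1.60 times that of the small-subunit genes in all 6 libraries. Genes also went up and down together by library. Each core gene was set against its own mean over the 6 libraries on the log2(FPKM + 1) scale, and the median deviation of the 77 core genes was -0.16 in A20-1, 0.078 in A20-3 and -0.11 in A20-4. The same median was -0.11 in BLM1, 0.015 in BLM2 and 0.29 in BLM3. BLM3 gave the highest value of all 6 libraries for 63 of the 77 core genes and A20-3 for 9. Within the knockout group A20-3 was the highest for 70 of 77, and within the wild-type group BLM3 for 69 of 77. BLM3 and A20-3, the highest libraries of their groups, were also the 2 with the highest sums of red cell markers, and BLM3 the one with neutrophil markers. The part of these cells in the shared deviation was not tested.

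**Figure D2:**
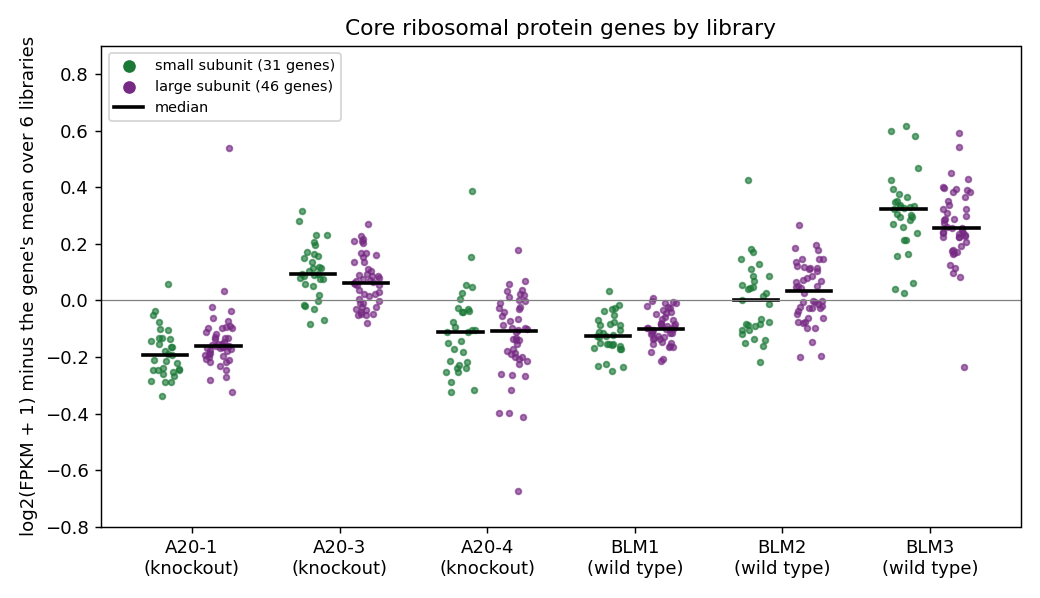
Deviation of each core ribosomal protein gene from its own mean over the 6 libraries (log2(FPKM + 1)) in each library, small subunit (31 genes) and large subunit (46 genes) apart, with the median as a bar. Both subunits sit highest in BLM3 (median 0.32 and 0.26) and lowest in A20-1 (-0.19 and -0.16).

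Libraries labelled knockout and wild type were then compared gene by gene, to ask whether the level of the translation machinery differed between them. Marker sums of recruited macrophages, neutrophils, dendritic cells and epithelium did not overlap between the groups. Genotype and cell make-up therefore cannot be told apart, and the part of cell make-up in the differences was not tested. The comparison used limma, a linear model that borrows information on the spread from all genes, on log2(FPKM + 1), with Benjamini-Hochberg adjustment over the 10696 genes whose mean over the libraries was 1 FPKM or more. All 91 ribosomal protein genes were among them. A gene was called at an adjusted p under 0.05. None of the 91 was called by limma in either direction, against 1.1% of all genes tested (0.252% higher and 0.851% lower in knockout). The smallest adjusted p of the set was 0.148. At an unadjusted p under 0.05 there were 6 of 91, beside 20.3% of all genes. Of these, 1 was higher in knockout (11.0% of all genes) and 5 were lower (9.3% of all genes). The core genes had 95% intervals that lay within a doubling or a halving (log2 of 1) for all 77. Of the whole set this held for 90 of 91, the exception being Rps27rt, beside 8868 of the 10696 genes tested.

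The signs were less even than the calls. A negative difference, lower in knockout, was found for 79 of 91 genes (86.8%), against 47.1% of all genes tested. The median was -0.14 on the log2 scale, against 0.021 for all genes. With the trend of each library over GC content and length removed, however, only 28 of 91 were negative and the median was 0.054. Of all genes tested, 44.9% were negative under that setting, and their median was 0.030. GC content and length were at hand for 89 of the 91 genes. Rpl27-ps3 (-0.075) and Rpl7a-ps5 (-0.071) kept their uncorrected negative values there. The median was -0.14 for the 31 small-subunit genes, of which 26 were negative, and -0.12 for the 46 large-subunit genes, of which 41 were negative, while these medians were 0.052 and 0.065 once the GC and length trend was removed. Leaving out BLM3 left 57 of 91 negative and a median of -0.041, beside 45.9% of all genes negative and a median of 0.028. With limma's array weights, which give libraries that deviate less weight, 49 of 91 were negative with a median of -0.0099. Because the genes move together by library, the number of negative signs counts one shared deviation many times.

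Transcript length was set beside this pattern. The core messages are short, with a median transcript of 855 bases against 2839 for all genes tested. GC content and length were taken from the protein-coding transcript with the longest coding part, and among equals the longest. This gave some core genes long transcripts, such as Rps15a with 5179 bases, Rps20 with 3706 and Rpl18 with 2989. Whether the cells used those transcripts was not tested. The 727 other genes with transcripts under 1000 bases had a median deviation of -0.10 ± 0.077 in the knockout libraries and 0.087 ± 0.042 in the wild-type libraries (SD, n = 3 each), a difference of -0.19. It was -0.20 without BLM3, where the same difference for the core genes was -0.020 (-0.13 with all 6 libraries). By library, the short genes were highest in BLM2 (0.13, against 0.064 in BLM3), while the core genes were highest in BLM3 (0.29). The 4944 other genes with transcripts of at least 3000 bases stood at 0.050 in knockout and -0.050 in wild type. The part of transcript length in the differences of ribosomal protein genes was not tested beyond the removal of the trend.

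**Figure D3:**
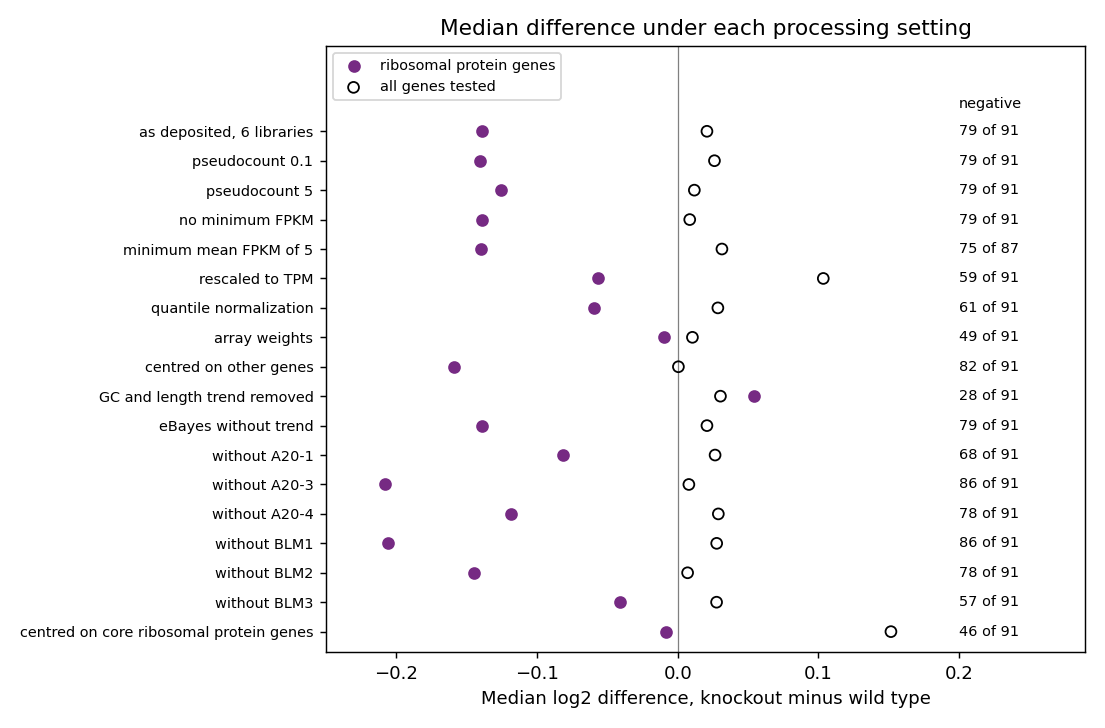
Median log2 difference (knockout minus wild type) of the ribosomal protein genes (filled) and of all genes tested (open) under each processing setting, with the number of ribosomal protein genes of negative sign at the right. The median runs from -0.21 without A20-3 to 0.054 with the GC and length trend removed, and centring on the core genes moves the median of all genes to 0.15.

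The values did not overlap between the groups for 12 genes. There were 11 lower in every knockout library (12.1% of the set, beside 13.1% of all genes tested) and 1 higher in every knockout library, Rpl10 (beside 15.9% of all genes). Among the 11, the core genes were Rpl17, Rpl19, Rpl31, Rpl36a and Rpl38 of the large subunit and Rps24 and Rps29 of the small subunit. The others were the copies Rpl22l1, Rpl36al and Rps27rt and the pseudogene name Rps12-ps3. Rpl19, Rpl31, Rps24 and Rps29 are named here after their values were seen. With the GC and length trend removed, their differences were -0.11, -0.044, -0.22 and 0.013, so the sign of Rps29 was not kept.

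**Figure D4:**
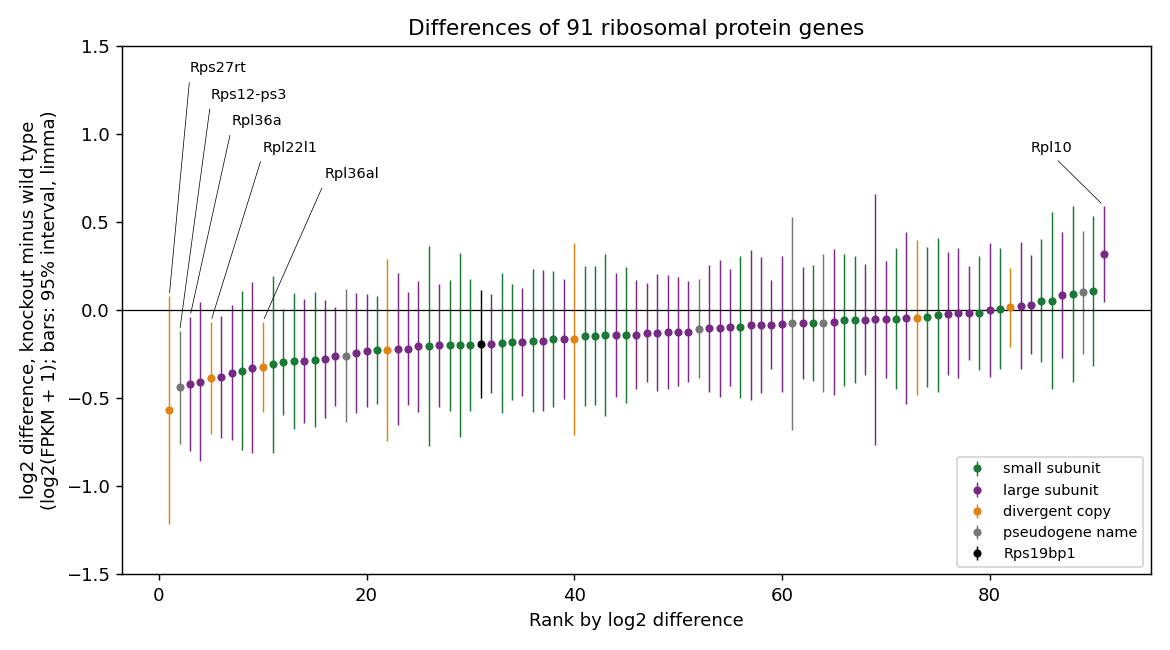
Log2 difference (knockout minus wild type, log2(FPKM + 1)) of each of the 91 genes in rank order, with its 95% interval from limma, coloured by class. Most points lie just below 0 with intervals across it; with the GC and length trend removed most lie above it (28 of 91 negative), and Rpl10 (0.32) is the highest under the deposited scaling.

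In the small subunit, no gene was called. Rpsa, which is also known as the laminin receptor precursor, stood at 154, 188 and 143 FPKM in knockout and at 165, 159 and 213 in wild type. The groups overlapped (log2 difference -0.14 ± 0.17 SE, limma adjusted p = 0.649). Rps6 stood at 277, 331 and 291 in knockout and at 291, 283 and 434 in wild type. Its BLM3 value alone lay above the knockout range (-0.14 ± 0.19 SE, limma adjusted p = 0.705), and without BLM3 the difference was 0.057.

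Rps3, a small-subunit protein at the entry of the messenger RNA that is also known to bind NF-kB p65, stood at 106, 125 and 105 in knockout and at 104, 107 and 140 in wild type (-0.054 ± 0.15 SE, limma adjusted p = 0.862). Rps19, the protein most often altered in Diamond-Blackfan anaemia, stood at 52.7, 68.7 and 54.9 in knockout and at 63.8, 66.4 and 85.0 in wild type, and the groups overlapped (-0.28 ± 0.16 SE, adjusted p = 0.362). Rps25, used by several viral internal ribosome entry sites, stood at 65.5, 95.1 and 62.2 in knockout and at 69.4, 105 and 80.4 in wild type (-0.20 ± 0.22 SE, adjusted p = 0.638). Its highest libraries, A20-3 and BLM2, lay in different groups. Rps27a, made as a fusion with ubiquitin, had a difference of -0.14 ± 0.16 SE (limma adjusted p = 0.653).

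In the large subunit, Rpl10 had the highest positive difference of the 46 genes under the deposited scaling. Rpl10 (gene ENSMUSG00000008682.13, GRCm38 chrX:74270812-74273135, plus strand) encodes a protein at the core of the large subunit that joins late in its assembly. It stood at 179.5, 211.9 and 198.8 FPKM in knockout and at 154.5, 168.2 and 149.2 in wild type. All knockout libraries lay above all wild-type libraries, and BLM3, the highest library for most core genes, was the lowest for this one. The log2 difference was 0.32 ± 0.11 SE with a 95% interval of 0.047 to 0.59 and an unadjusted limma p of 0.0277, and it did not pass the adjustment (limma adjusted p = 0.19). It was positive under every setting tried, from 0.26 to 0.53, with limma adjusted p from 0.0368 to 0.42, and it was called only with array weights, under which 18.1% of all genes were called.

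Rpl10 has a near-identical copy in the table. Rpl10-ps3 (GRCm38 chr9:50344201-50344968, minus strand) has 1 exon and shares 96.1% of its 50-base words with the transcripts of Rpl10, so reads can have been divided between them and both values are uncertain. Rpl10-ps3 stood at 71.9, 87.3 and 77.3 in knockout and at 63.9, 86.8 and 70.8 in wild type. The groups overlapped (0.10 ± 0.15 SE, limma adjusted p = 0.727).

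Of the core genes lower in every knockout library, Rpl38, which is known for its role in the translation of Hox messages in the embryo, stood at 328, 377 and 345 in knockout and at 392, 457 and 527 in wild type. Its difference was -0.38 ± 0.14 SE (unadjusted p = 0.0355, limma adjusted p = 0.212). Once the GC and length trend was removed it was -0.15. Rpl36a, on the X chromosome, stood at 62.4, 67.4 and 52.3 in knockout and at 69.4, 79.7 and 95.9 in wild type (-0.42 ± 0.16 SE, limma adjusted p = 0.212). Its difference was -0.067 with the trend removed. Rpl17, which lines the tunnel of the nascent chain, stood at 602, 685 and 523 in knockout and at 689, 725 and 1005 in wild type, so that A20-3 and BLM1 nearly met (-0.41 ± 0.19 SE, limma adjusted p = 0.287). The difference of Rpl17 was -0.24 without BLM3 and -0.26 with the trend removed.

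Rpl5 and Rpl11 are known to bind Mdm2. Rpl5 stood at 135, 162 and 152 in knockout and at 131, 126 and 170 in wild type (0.084 ± 0.15 SE, limma adjusted p = 0.78). Rpl11 stood at 102, 111 and 105 in knockout and at 110, 117 and 137 in wild type (-0.19 ± 0.12 SE, limma adjusted p = 0.395), so the groups overlapped for both. Rpl13a, known in myeloid cells as a part of the complex that silences inflammatory messages after interferon, stood at 177, 218 and 203 in knockout and at 182, 191 and 268 in wild type. Its difference was -0.084 ± 0.18 SE (limma adjusted p = 0.814), and 0.089 without BLM3. Rpl41, the smallest ribosomal protein, had a difference of -0.13 ± 0.12 SE (limma adjusted p = 0.566).

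In the stalk, Rplp0 stood at 465, 562 and 449 in knockout and at 436, 460 and 555 in wild type, with overlap (0.026 ± 0.15 SE, limma adjusted p = 0.939). The acidic proteins Rplp1 and Rplp2 had differences of -0.084 ± 0.16 SE and -0.077 ± 0.16 SE (limma adjusted p = 0.796 and 0.81). The sign of Rplp0 was negative when A20-3, BLM1 or BLM2 was left out, and those of Rplp1 and Rplp2 were positive with the GC and length trend removed. Rpl12, at the base of the stalk, stood at 91.5, 115 and 102 in knockout and at 113, 109 and 173 in wild type (-0.33 ± 0.20 SE, limma adjusted p = 0.400), and its difference was -0.11 without BLM3. The groups overlapped for all 4 genes.

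Most core genes were close in how they followed the shared library deviation. With that deviation taken out, the SD of a gene over the 6 libraries was 0.027 (log2) for Rpl34, 0.030 for Rpl22 and 0.036 for Rpl7a, the least variable 3. Rpl29, a basic protein of the large subunit, was the most variable of the whole set, with 170, 121 and 72.9 in knockout and 109, 115 and 135 in wild type (SD 0.41). Its highest and its lowest library were both knockout libraries, so the spread lay within the group and not between the groups (-0.053 ± 0.30 SE, limma adjusted p = 0.934). Among the core genes, Rpl10 followed with an SD of 0.30 and Rps25 with 0.26. Rps20, which was highest in A20-4 at 72.3 and lowest in A20-1 at 44.9, had an SD of 0.25. Rpl29, Rpl34, Rpl7a and Rps20 were chosen here after their values were seen.

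The divergent copies are genes with the coding potential of a ribosomal protein that differs from the main one, and some are known to take its place in certain cells. Each was set against its core gene in the same library as a log2 ratio of FPKM + 1, which a single factor for a whole library alters only through the added 1, while a trend over GC content and length can alter it. The test was a two-sided exact permutation test over the 6 libraries, which cannot give a p below 0.1, and 7 pairs were compared. Rpl22l1 (gene ENSMUSG00000039221.10), the copy of Rpl22, is known to act against Rpl22 in the development of blood cells. It stood at 16.9, 18.9 and 14.9 FPKM in knockout and at 19.6, 23.3 and 24.1 in wild type, all knockout libraries below all wild-type ones (-0.38 ± 0.13 SE, limma adjusted p = 0.184), but at a difference of 0.0073 with the GC and length trend removed.

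Rpl22 stood at 50.5, 57.7 and 50.1 in knockout and at 51.5, 57.3 and 66.5 in wild type, and overlapped. Rpl22l1 therefore stood at 33.4, 32.9 and 29.6% of Rpl22 in the knockout libraries and at 38.0, 40.7 and 36.3% in the wild-type libraries. This ratio did not overlap between the groups, with or without BLM3 (log2 difference -0.25, and -0.29 without it), but the difference of the ratio was 0.071 once the GC and length trend was removed. The exact permutation p was 0.1, the smallest that 3 against 3 allows, and 0.7 after Benjamini-Hochberg adjustment over the 7 pairs. The start of Rpl22l1 printed above was a G followed by a pyrimidine run. That of Rpl22 had no such run, but Rpl22 has 2 annotated starts and the other was not shown.

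For Rps27 and its copy Rps27l the groups overlapped. Rps27l, which is known as a p53 target, stood at 79.0, 68.1 and 63.1 in knockout and at 80.1, 110 and 62.1 in wild type, where BLM2 was the highest and BLM3 the lowest library of all. Without BLM3 all knockout values of Rps27l lay below the wild-type ones (log2 difference -0.42, limma adjusted p = 0.193). With all libraries and the GC and length trend removed, its difference was 0.12. Rps27 stood at 256, 297 and 240 in knockout and at 287, 272 and 445 in wild type, with BLM3 the highest. Rps27l was thus 40.3% of Rps27 in BLM2 and 14.0% in BLM3, both wild type, and 22.9 to 30.8% in the knockout libraries. The ratio gave an exact permutation p of 0.9.

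Rps27rt, a copy with 1 exon that shares 91.1% of its 50-base words with Rps27, stood at 12.4, 12.6 and 6.81 in knockout and at 12.8, 14.4 and 20.8 in wild type. Its groups did not overlap, though A20-3 and BLM1 nearly met. Its difference of -0.57 ± 0.27 SE was the most negative of the set under the deposited scaling, with a 95% interval from -1.22 to 0.079 (limma adjusted p = 0.293). It was -0.15 with the GC and length trend removed, -0.31 without A20-4 and -0.38 without BLM3. The ratio to Rps27 overlapped between the groups (exact permutation p = 0.4), and shared reads make the level uncertain.

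Rpl36al, the copy of Rpl36a, was at the level of its core gene, at 92.1 to 121% of it. It stood at 66.0, 62.1 and 63.5 in knockout and at 75.1, 77.1 and 89.0 in wild type, with no overlap (-0.32 ± 0.11 SE, limma adjusted p = 0.174, and adjusted p from 0.0603 to 0.571 over the settings tried). Rpl36a was lower in the same libraries, and the ratio overlapped (exact permutation p = 0.7). Rpl7l1 stood at 28.6, 30.2 and 28.0 in knockout and at 29.5, 29.2 and 27.1 in wild type, 14.8 to 20.3% of Rpl7 (exact permutation p = 0.6 for the ratio). BLM3, the highest library for most core genes, was the lowest for Rpl7l1. For Rpl39l and Rpl3l the exact permutation p of the ratio was 0.8 and 1.

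**Figure D5:**
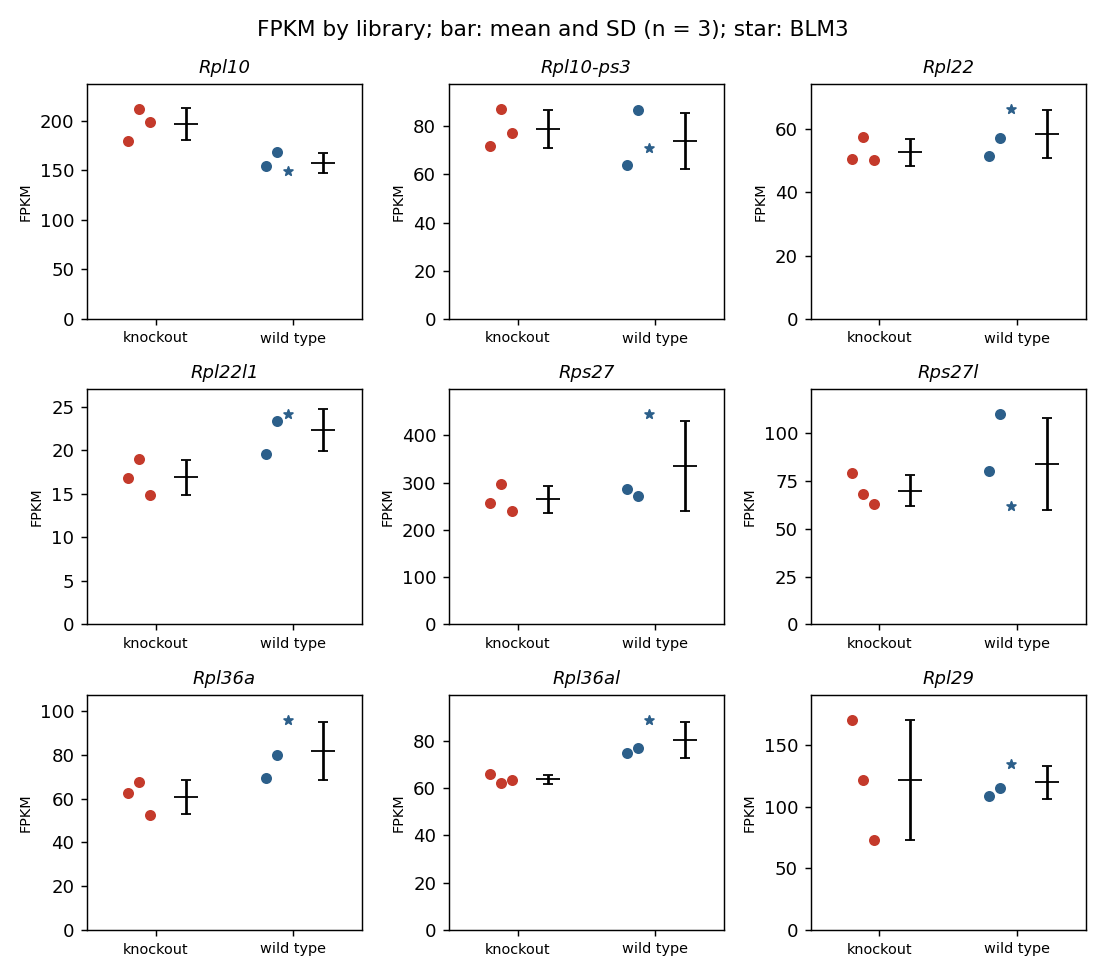
FPKM of 9 genes in each library (knockout and wild type; star, BLM3), with the mean and SD (n = 3) beside the points. Rpl10 is higher and Rpl22l1, Rpl36a and Rpl36al are lower in every knockout library, though the sign of Rpl22l1 is not kept with the GC and length trend removed (0.0073), and Rpl29 has its widest spread within the knockout group.

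The 6 genes with a pseudogene suffix stood below their parent genes, at 0.462% (Rpl7a-ps5) to 51.6% (Rpl10-ps3) of them. Rps12-ps3 (GRCm38 chr19:59322290-59322783, plus strand) stood at 31.7, 33.3 and 29.8 in knockout and at 39.6, 39.5 and 51.4 in wild type, with no overlap. Its difference of -0.44 ± 0.13 SE gave the smallest p of the set (unadjusted p = 0.0142, limma adjusted p = 0.148), and it was called lower only with array weights (limma adjusted p = 0.0344, in a range of 0.0344 to 0.415 over the settings). All of its 50-base words (100%) are also in Rps12 transcripts, so the value cannot be told apart from reads of Rps12. Rps12 itself stood at 97.6, 125 and 108 in knockout and at 104, 118 and 147 in wild type, with overlap. Rpl9-ps6 and Rpl36a-ps1 shared 89.2% and 63.5% of such words with Rpl9 and Rpl36a.

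Genes for proteins of the ribosome whose symbols do not follow the rule gave values in the same range. Fau, whose product is cut into the small-subunit protein S30 and a ubiquitin-like protein, had a difference of -0.13 ± 0.18 SE (limma adjusted p = 0.699). Rack1, a scaffold on the head of the small subunit, had a difference of 0.026 ± 0.16 SE (limma adjusted p = 0.941). Neither was called.

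The genes around the ribosome were read from lists of elongation factors and other TOP messages, initiation factors, assembly factors, rDNA transcription and mTORC1 control. By limma, 0 of the 17 elongation and TOP genes, 0 of 26 initiation factors, 0 of 39 assembly factors, 0 of 14 rDNA transcription genes and 0 of 22 mTORC1 genes were called in either direction, beside 1.1% of all genes. At an unadjusted p under 0.05 there were 3 higher and 1 lower of the elongation and TOP genes, 1 and 0 of the initiation factors, 1 and 2 of the assembly factors, none of the rDNA transcription genes, and 3 and 2 of the mTORC1 genes, beside 11.0% higher and 9.3% lower of all genes. With array weights the calls were 4 higher and 0 lower of the elongation and TOP genes, 2 and 1 of the assembly factors, 1 and 2 of the mTORC1 genes, and none of the initiation and rDNA transcription genes, beside 18.1% of all genes called in either direction. Their median differences were 0.053, 0.020, -0.039, 0.0078 and 0.069, beside the -0.14 of the ribosomal protein genes. These medians became 0.18, 0.071, -0.020, 0.091 and -0.016 once that trend over GC content and length was removed, beside 0.054.

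Of the 17 elongation and TOP genes, 10 had a positive and 7 a negative difference, and the 3 of smallest p were positive. Eef2, which moves the ribosome along the messenger RNA, stood at 599, 665 and 648 in knockout and at 468, 459 and 471 in wild type, with no overlap (0.45 ± 0.11 SE, limma adjusted p = 0.103). Eif4b, a helper of the initiation helicase, stood at 131, 132 and 141 in knockout and at 101, 99.1 and 92.6 in wild type (0.46 ± 0.098 SE, limma adjusted p = 0.0851). Nap1l1, a histone chaperone, had a difference of 0.35 ± 0.090 SE (limma adjusted p = 0.114). All 3 kept a positive difference without BLM3 (0.46, 0.43 and 0.35) and after removal of the GC and length trend (0.41, 0.41 and 0.37). With array weights all 3 were called higher (limma adjusted p = 0.0151, 0.0118 and 0.0160), beside 18.1% of all genes called. Hnrnpa1, an RNA-binding protein named here after its values were seen, was the one of the list that was lower at an unadjusted p under 0.05, with 106, 94.2 and 81.5 in knockout and 119, 112 and 135 in wild type (-0.38 ± 0.14 SE, limma adjusted p = 0.200).

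Of the mTORC1 list, Eif4ebp2, a repressor of cap-dependent initiation, stood at 34.3, 39.6 and 40.5 in knockout and at 29.3, 23.3 and 25.9 in wild type (0.53 ± 0.12 SE, limma adjusted p = 0.102). Lamtor4, a subunit of the Ragulator complex that anchors mTORC1 at the lysosome, stood at 36.9, 40.0 and 36.9 in knockout and at 54.9, 60.6 and 47.6 in wild type (-0.50 ± 0.12 SE, limma adjusted p = 0.103). It was called without BLM3 (-0.59, limma adjusted p = 0.0344) and with array weights (-0.54, limma adjusted p = 0.0084), under which 3.84 and 18.1% of all genes were called, and under no other setting tried. Its neighbour in the complex Lamtor1 had a difference of -0.40 ± 0.11 SE (limma adjusted p = 0.136). Of the assembly factors, Tsr1, which acts late in the making of the small subunit, had a difference of 0.45 ± 0.11 SE, and Nhp2, of the small nucleolar particles, one of -0.30 ± 0.10 SE (limma adjusted p = 0.111 and 0.184).

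The proteins of the mitochondrial ribosome are encoded by other genes, named Mrpl and Mrps. Of 78 tested, none was called by limma (9 at an unadjusted p under 0.05, 1 higher and 8 lower), beside 1.1% of all genes called and 20.3% at an unadjusted p under 0.05. There were 61 of 78 negative, beside 47.1% of all genes, and the median was -0.11, or -0.017 with the GC and length trend removed. Without BLM3, 60 of 78 were negative, and the median was -0.10. With array weights 1 was called higher and 6 lower, beside 18.1% of all genes. Without BLM3, Mrpl27, Mrpl41 and Mrpl54 were lower by 0.72, 0.48 and 0.48 on the log2 scale (limma adjusted p = 0.0245, 0.0464 and 0.0472). They were the only 3 of the 78 called there, beside 3.84% of all genes. With all libraries and the GC and length trend removed, their differences were -0.45, -0.26 and -0.35, and none was called (limma adjusted p = 0.175, 0.248 and 0.185). These 3 are named after their values were seen, and whether the 2 sets of genes differed in their response was not tested.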

How the data were processed

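Libraries were made from total RNA with a stranded kit, per the labels' protocols. The authors deposited 1 table of FPKM values per gene and library, per the file headers, on build GRCm38, per the submitters' processing notes. For aligner, quantifier, annotation release and use of strand the entry is: not given in the sources used here. Low values showed no whole-read steps, so depth is unknown and counting intervals were not computed. FPKM sums ran from 266094 to 294525 per library. No 2 libraries held the same values.

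Columns named for A20 were taken as knockout. Those named only for BLM were taken as wild type, the one other group. Their numbers are not the titles' replicate numbers.

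The fit was limma 3.58.1 in R 4.3.3 (lmFit, eBayes with trend, two-sided) on log2(FPKM + 1), so differences of low genes are understated. Genes under a mean FPKM of 1 over 6 libraries were left out (1093). It was tested on simulated data. Named were members past the threshold, the 5 highest and 5 lowest differences, the 5 highest and 3 lowest levels, fixed genes and copy pairs (35 members), and 3 genes of smallest p per other list. Some genes that this rule names are not reported here. Members and lists were chosen with earlier results of these data known. Alternatives were other pseudocounts, filters and scalings, array weights, removal of the GC and length trend, and leaving out each library. Centring on the core genes, and removal of the GC and length trend from the ratios of copies to core genes, were added after seeing the data. Start windows and 50-base words came from RefSeq (GRCm38.p6) and GENCODE M21.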

Additional observations from a re-analysis of the deposited data

How the results depend on the processing

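The count of 0 ribosomal protein genes called in each direction held under every setting tried except array weights, with 1 higher (Rpl10) and 1 lower (Rps12-ps3), where 1934 genes of the table were called in place of 118. The cause was not tested. The median difference of the set was -0.14 and moved to 0.054 with the GC and length trend removed. Leaving out each library in turn gave medians from -0.21 to -0.041 and 0 calls. No paired analysis was possible because the numbers in the column names do not match those of the titles. None of the single genes was called with the deposited values and equal weights, so a change of sign is a change of an uncalled value. Changes of sign are listed here for the genes named by rule only. With the GC and length trend removed, sign changed to 0.0073 for Rpl22l1, 0.15 for Rplp1, 0.16 for Rps3a1, 0.11 for Rpl8, 0.0308 for Rps15, 0.0542 for Rpl3l, 0.11 for Rpl39l, 0.0358 for Rps3, 0.0519 for Rps6, 0.0787 for Rps27a, 0.0576 for Rpl13a, 0.11 for Rpl41, 0.0717 for Rplp2, 0.15 for Rpl7, 0.0301 for Rpl39, 0.0986 for Rpl3, 0.0522 for Rps27 and 0.12 for Rps27l. With array weights, sign changed to 0.0378 for Rplp1, 0.14 for Rps3a1, 0.11 for Rpl8, 0.12 for Rpl7a-ps5, 0.0173 for Rpl3l, 0.0696 for Rps3, 0.0160 for Rps6, 0.10 for Rpl13a, 0.0387 for Rplp2, 0.10 for Rpl7, -0.0283 for Rpl7l1 and 0.0611 for Rpl3. Centred on the core genes, sign changed to 0.0468 for Rplp1, 0.10 for Rps3a1, 0.11 for Rpl8, 0.0594 for Rpl7a-ps5, 0.0867 for Rpl3l, 0.0766 for Rps3, 0.0464 for Rpl13a, 0.0032 for Rpl41, 0.0536 for Rplp2, 0.0774 for Rpl7 and 0.11 for Rpl3. Rescaled to TPM, sign changed to 0.0556 for Rps3a1, 0.0650 for Rpl8, 0.0137 for Rpl3l, 0.0290 for Rps3, 0.006 for Rplp2, 0.0299 for Rpl7 and 0.0658 for Rpl3. After quantile normalization, sign changed to 0.0253 for Rps3a1, 0.11 for Rpl8, 0.0170 for Rpl3l, 0.0368 for Rps3, 0.0319 for Rpl13a, 0.0435 for Rpl7 and 0.0629 for Rpl3. Centred on all other genes, sign changed to -0.004 for Rpl7l1. With each library left out in turn, the difference crossed 0 in 14 named genes, ranging from -0.21 to 0.003 for Rplp1, -0.12 to 0.13 for Rps3a1, -0.0883 to 0.10 for Rpl8, -0.20 to 0.0779 for Rpl7a-ps5, -0.17 to 0.13 for Rpl3l, -0.36 to 0.0099 for Rpl39l, -0.13 to 0.0788 for Rps3, -0.25 to 0.0568 for Rps6, -0.19 to 0.0894 for Rpl13a, -0.0734 to 0.13 for Rplp0, -0.21 to 0.0222 for Rplp2, -0.15 to 0.0154 for Rpl7, -0.0209 to 0.0386 for Rpl7l1 and -0.0632 to 0.0630 for Rpl3. The alternatives for pseudocount, minimum level and eBayes without trend changed no sign of a named gene, and a minimum of 5 FPKM left 87 of the 91 genes. Without BLM3, the log2 ratios of Rpl7l1, Rpl39l and Rps27l to their core genes also changed sign, to -0.036, -0.20 and -0.34. With 3 libraries per group and unknown depth, small differences of single genes could not be resolved.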
